A study of Mus musculus with 6 samples.

Results

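The immunoglobulin heavy chain variable (IGHV) genes were examined in peritoneal cells of saline and PD mice. They were taken as the rows of the deposited count table whose symbol starts with Ighv and whose mean over the 6 libraries was at least 10 counts, which gave 86 of the 113 Ighv rows and of the 22183 rows in the table. All animals were wild-type (WT) adult male C57BL/6J mice. Saline mice had intraperitoneal saline for 6 weeks, and PD mice had peritoneal dialysis (PD) fluid, a high-glucose solution, by the same route for the same time. Each group held 3 libraries, for which the study describes 3 mice without saying that none were pooled, so p-values measure the spread between these samples. The labels name a magnetic sort of CD31+ cells and call the cells endothelial, while the supplementary methods describe cells sorted by flow cytometry as CD31+ and CD45- after collagenase digestion of the mesentery. Total counts ran from 21973426 to 26374292 per library.

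IGHV genes encode the variable part of the antibody heavy chain. A developing B cell joins 1 of them to a D and a J segment and thereafter transcribes mainly that rearranged gene, so that V reads in bulk RNA follow both which B cells and plasma cells are present and how much antibody RNA each holds. In bulk samples, fewer cells of a type and less RNA per cell cannot be told apart. Endothelial cells are not known to make antibody. Genes are grouped into families by sequence likeness, and the number after Ighv in the symbol gives the family. The peritoneal cavity is known for B-1 cells, which make natural IgM from a restricted set of V genes.

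The 86 genes lie on the minus strand of chromosome 12 between 113578504 and 116000461 (GRCm38), in 13 of the 16 families that the table lists. Family 1 held 45 of them, and families 4, 11 and 13 were represented by 1 gene each. Among the other 27 rows, 6 were at 0 in every library and those just below the limit were Ighv15-2 with a mean of 9.33 counts, Ighv1-49 with 8.67, and Ighv8-6 and Ighv2-4 with 7.67 each. Just above it were Ighv3-1 with 12, Ighv3-8 with 12.83, and Ighv1-20 with 13.

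The sequences on which the results turn are given first, since neighbouring V genes can be hard to tell apart by short reads. They are the last 300 bases of the coding V exons on the minus strand, 5′ to 3′, from the GENCODE M21 transcripts (GRCm38). The first pair is shown because Ighv1-26 was the most abundant member in saline mice and Ighv1-18 is the member most like it. Capitals mark the 8 of 305 exon bases at which they differ.
Ighv1-26, chr12:114788372-114788671: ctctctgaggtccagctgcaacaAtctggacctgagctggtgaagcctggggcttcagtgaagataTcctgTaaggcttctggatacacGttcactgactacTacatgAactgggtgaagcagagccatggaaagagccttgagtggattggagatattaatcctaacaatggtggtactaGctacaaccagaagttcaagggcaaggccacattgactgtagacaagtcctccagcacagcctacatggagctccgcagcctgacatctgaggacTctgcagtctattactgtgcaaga
Ighv1-18, chr12:114682632-114682931: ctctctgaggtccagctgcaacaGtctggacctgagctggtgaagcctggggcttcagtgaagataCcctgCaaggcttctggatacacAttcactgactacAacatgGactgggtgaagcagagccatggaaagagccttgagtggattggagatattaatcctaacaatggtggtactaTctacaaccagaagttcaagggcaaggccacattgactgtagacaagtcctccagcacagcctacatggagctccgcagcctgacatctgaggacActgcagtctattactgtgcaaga
The second pair is shown because both genes belong to family 5 and went in opposite directions. Capitals mark the 17 of 307 exon bases at which they differ.
Ighv5-9, chr12:113661769-113662068: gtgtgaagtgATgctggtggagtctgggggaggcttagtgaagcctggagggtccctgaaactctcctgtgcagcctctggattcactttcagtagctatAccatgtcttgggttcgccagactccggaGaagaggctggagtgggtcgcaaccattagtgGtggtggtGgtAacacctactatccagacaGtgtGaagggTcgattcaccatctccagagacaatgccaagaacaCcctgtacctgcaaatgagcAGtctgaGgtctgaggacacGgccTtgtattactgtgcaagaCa
Ighv5-4, chr12:113597446-113597745: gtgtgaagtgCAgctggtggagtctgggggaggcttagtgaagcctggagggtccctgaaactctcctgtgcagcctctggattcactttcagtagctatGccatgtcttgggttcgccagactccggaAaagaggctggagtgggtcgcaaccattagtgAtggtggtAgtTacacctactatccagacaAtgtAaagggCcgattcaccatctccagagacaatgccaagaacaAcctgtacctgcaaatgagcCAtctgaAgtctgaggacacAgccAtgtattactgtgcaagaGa
The next 4 genes carried the change of a whole family or most of it. Capitals mark TATTNNTG within the last 30 bases of the V exon, which encodes the conserved end of the third framework region with its cysteine.
Ighv4-1, chr12:113948282-113948581: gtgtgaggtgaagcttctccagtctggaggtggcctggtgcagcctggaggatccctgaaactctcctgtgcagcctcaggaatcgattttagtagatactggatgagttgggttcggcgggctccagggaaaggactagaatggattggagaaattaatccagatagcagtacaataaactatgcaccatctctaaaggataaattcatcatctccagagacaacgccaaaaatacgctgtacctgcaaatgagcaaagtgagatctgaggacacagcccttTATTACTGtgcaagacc
Ighv6-3, chr12:114391712-114392011: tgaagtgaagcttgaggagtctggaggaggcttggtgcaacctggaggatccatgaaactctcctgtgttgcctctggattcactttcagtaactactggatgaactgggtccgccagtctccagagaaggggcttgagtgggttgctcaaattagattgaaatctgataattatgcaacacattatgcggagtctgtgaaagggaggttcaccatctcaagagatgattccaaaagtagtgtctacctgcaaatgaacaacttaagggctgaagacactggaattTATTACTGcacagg
Ighv11-2, chr12:114048241-114048540: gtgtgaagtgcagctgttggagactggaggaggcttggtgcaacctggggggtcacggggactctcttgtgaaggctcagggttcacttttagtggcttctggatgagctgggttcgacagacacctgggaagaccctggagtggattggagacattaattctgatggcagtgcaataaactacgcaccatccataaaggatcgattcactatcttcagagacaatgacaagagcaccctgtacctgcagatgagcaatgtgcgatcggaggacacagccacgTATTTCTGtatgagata
Ighv13-2, chr12:114357759-114358058: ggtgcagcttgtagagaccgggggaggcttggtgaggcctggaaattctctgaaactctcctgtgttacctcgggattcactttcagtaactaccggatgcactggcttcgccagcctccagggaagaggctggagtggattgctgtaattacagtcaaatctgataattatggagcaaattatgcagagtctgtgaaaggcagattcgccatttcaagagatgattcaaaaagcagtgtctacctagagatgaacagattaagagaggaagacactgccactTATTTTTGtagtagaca
These letters, searched on the coding strand, were present there in 75 of the 86 members (87.21%) and in 15 of the other 27 Ighv rows. They were chosen after the sequences had been read, and the stricter TATTACTG was found anywhere in the V exon of 54 members. A match describes these letters only.

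How far the rows can be separated depends on these sequences. The median identity of a member to its nearest Ighv row was 95.26% over the V exon, with a range from 76.55% to 100%. Between members of 1 family the median identity was 85.57% over 1069 pairs, and between families it was 60.06% over 2586 pairs. A stretch of 100 bases was shared exactly with another Ighv coding sequence by 24 members and not by the other 62, and 2 members shared more than 50% of such stretches. Those 2 are Ighv1-62-2 and Ighv1-71, whose V exons of 313 bases are identical, so their separate counts are uncertain. Counting was not stated to use strand, and family sums are less exposed to the division of reads among near copies than single genes.

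Relative to all reads, the summed IGHV level overlapped between the groups, while the genes that supplied it differed. Summed over the 86 members, saline libraries held 901, 864 and 773 CPM (counts scaled to library size, with edgeR's TMM factors, and to a common total). PD libraries held 838, 824 and 894 CPM. The groups overlapped, with means of 846 ± 66.1 and 852 ± 37.2 CPM (SD, n = 3 each; two-sided exact permutation p = 1.0). The log2 ratio of the sums was 0.01, and -0.66 when libraries were scaled to the summed counts of 12 endothelial marker genes, which are themselves higher in PD mice. With 3 libraries against 3, the smallest p that this test can give is 0.1. Without Ighv1-26, a choice made after its values were seen, the other members summed to 699 ± 52.8 CPM with saline and 828 ± 35.6 CPM with PD fluid. Every PD library was above every saline library (exact permutation p = 0.1). Because the full sum was level and this gene fell, a higher remainder follows from leaving it out and is no separate result. The inverse Simpson index, the number of equally used genes that would give the same evenness, was 20.8, 20.8 and 21.02 in saline mice and 29.7, 27.4 and 26.9 in PD mice (exact permutation p = 0.1). The index was thus higher in all 3 PD libraries, but it weighs the most abundant genes heavily. Ighv1-26 alone went from 17.3 to 2.83% of IGHV reads, and the evenness of the other members was not tested. The most abundant member supplied 17.3% ± 0.220 of IGHV reads in saline mice and 9.79% ± 0.8996 in PD mice, whereas the 5 most abundant supplied 34.7% ± 0.487 and 33.7% ± 1.34, which overlapped (exact permutation p = 0.3).

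**Figure D1:**
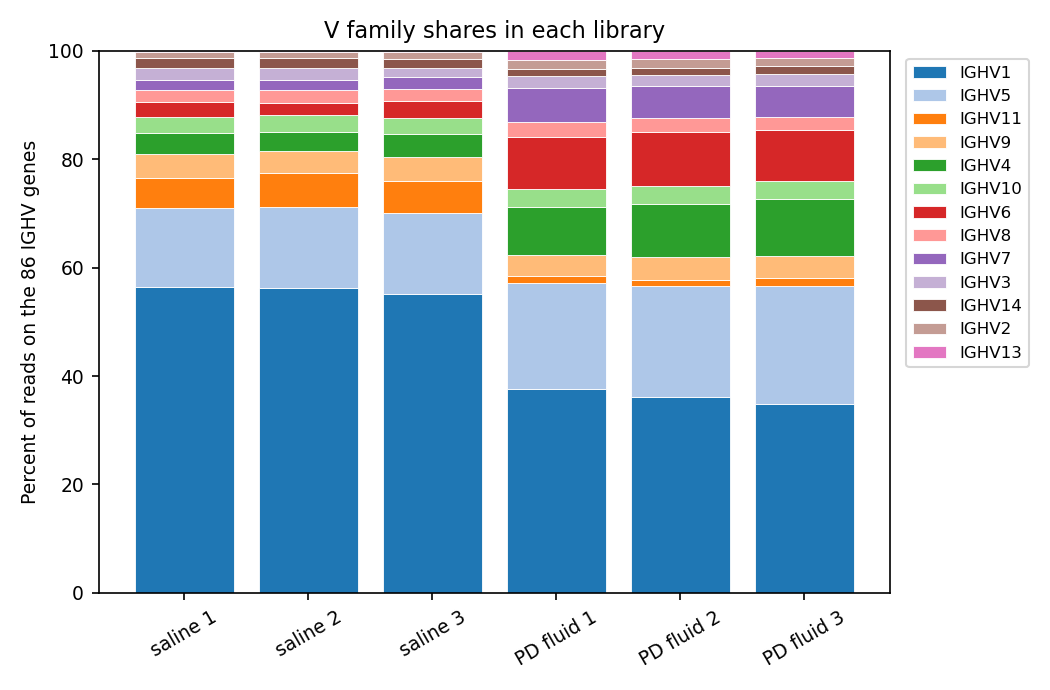
Percent of reads on the 86 IGHV genes that fell on each V family in each of the 6 libraries; each bar is 1 library and sums to 100%. Family 1 makes up 55.2 to 56.5% of every saline bar and 34.8 to 37.6% of every PD bar, and families 4, 6 and 7 are wider in every PD bar.

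Libraries of 1 group were close to each other in V gene usage. Of the reads, 3.96 to 5.38% lay on different genes between any 2 libraries of a group, against 32.0 to 34.9% between a saline and a PD library. Across the 86 genes, Pearson's r of log2 CPM was 0.987 to 0.992 within a group and 0.798 to 0.823 between groups; these are descriptions across genes, which are not independent. The chi-square of counts per degree of freedom over the members was 1.87 to 2.33 within saline, 1.56 to 2.52 within PD and 72.2 to 90.0 between groups. Over all genes with a mean of at least 10 the same measure was 6.36 to 16.02 and 7.49 to 17.98 within groups. Counting noise alone gives a value near 1, so libraries labelled as separate mice differed by more than that in their V gene counts, and by less than over the whole table, whose genes have other count levels. Nothing in the sources used here says whether each library was made from 1 mouse alone or from pooled mice, so whether n = 3 counts animals was not tested.

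Of the 85 members that passed the filter on low counts, 47 differed between groups at an adjusted p below 0.05 (edgeR's quasi-likelihood test, adjusted over 14005 genes). This is 55.3% of them, and 58.9% of all genes tested were called, so the share is near the background. Higher in PD mice were 21 members (24.7%, background 31.1%) and lower were 26 (30.6%, background 27.8%); with libraries scaled to 12 endothelial marker genes in place of all genes, which moves the median of all genes to -0.65, the split is 13 higher and 52 lower. The groups did not overlap for 57 members (67.1%, background 65.6%), of which 28 were higher in PD mice (background 34.0%) and 29 lower (background 31.6%). The members' changes were of larger median size than those of the table, and the excess of 2-fold changes was among lower members. Called and at least 2-fold different were 29 members (34.1%, background 17.2%). Of the 85, 13 were higher, near the background of 15.4%, and 16 were lower, above the background of 1.80%. Among them are Ighv3-4 and Ighv1-84 (higher) and Ighv1-36 (lower), which reached the limit of 10 counts through 1 group only. The median size of the log2 fold change was 0.69 among members and 0.40 among all genes, although the signed medians were -0.10 and 0.02. The 14 B cell markers given below had a signed median of -1.08 and the 8 heavy constant genes one of -0.04, so large falls were not particular to members. Ighv3-8, with counts of 30, 8 and 6 in saline and 10, 9 and 14 in PD libraries, was not tested.

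**Figure D2:**
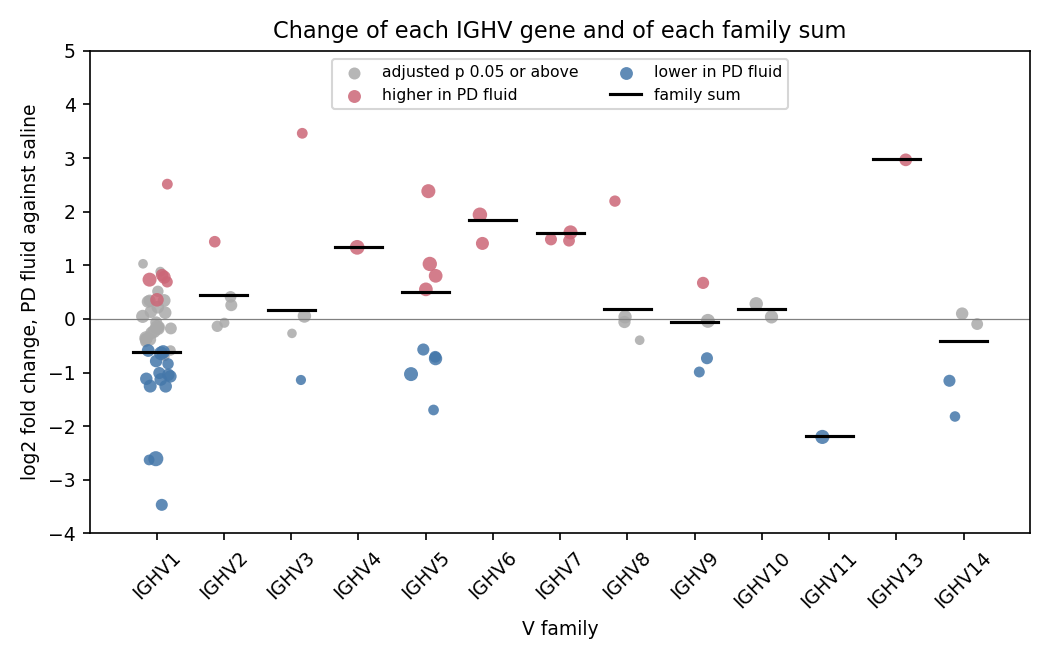
Log2 fold change of each tested member (points, one column per V family, point size by mean count) and of the family sum (bars), PD fluid against saline. All points of families 6 and 7 lie between 1.41 and 1.94, family 11 is a single gene at -2.20, and families 1, 3, 5 and 9 hold points called in both directions.

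When members were summed by family and fitted with the rest of the table, 9 of the 13 families were called and 58.3% of the 13933 rows tested in that fit were called. Family 1 fell. Its sum was 509, 487 and 426 CPM in saline libraries and 315, 298 and 311 CPM in PD libraries. Its log2 fold change was -0.61 (SE 0.07, edgeR adjusted p = 4.06e-05) and its share of IGHV reads went from 56.0% ± 0.718 to 36.2% ± 1.41. Within it 15 members were lower, 6 higher and 24 not called. Much of the fall in CPM was that of Ighv1-26. Without this gene, a choice made after its values were seen, the other 44 members summed to 327 ± 29.5 CPM with saline and 284 ± 7.35 CPM with PD fluid, a log2 fold change of -0.20 (SE 0.07, adjusted p = 0.0355 in the same edgeR fit).

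Families 6 and 7 rose in all their members. Family 6, which comprises Ighv6-3 and Ighv6-6 here, summed to 24.9, 20.3 and 23.8 CPM in saline and 80.5, 82.5 and 83.9 CPM in PD libraries, a log2 fold change of 1.84 (SE 0.09, edgeR adjusted p = 4.28e-08). Family 7 summed to 17.6, 16.3 and 16.8 CPM in saline and 51.1, 49.7 and 51.3 CPM in PD libraries (log2 fold change 1.59, SE 0.08, adjusted p = 6.68e-08). Its 3 genes are Ighv7-1, known from the dominant antibody to phosphorylcholine in mice, Ighv7-3 and Ighv7-4. The share of family 6 in IGHV reads was 2.73% in saline and 9.67% in PD mice, and that of family 7 was 2.003% and 5.96%. In neither family did a PD library come near the saline range.

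Family 5, the second largest by reads, changed unevenly. It summed to 131, 128 and 115 CPM in saline and 164, 168 and 195 CPM in PD libraries, so that the groups did not overlap. It was higher in PD mice with a log2 fold change of 0.50 (SE 0.08, edgeR adjusted p = 3.89e-04), but with scaling to endothelial markers the sign turned, to -0.17. Of its 9 members, 4 were higher (Ighv5-9, Ighv5-17, Ighv5-9-1 and Ighv5-16) and 5 were lower. Ighv5-9 and Ighv5-4, printed above, differ at 17 bases and moved apart. Ighv5-9 had 8.28, 9.09 and 8.70 CPM in saline and 41.1, 43.2 and 51.5 CPM in PD libraries (log2 fold change 2.38, SE 0.11, adjusted p = 2.73e-08). Ighv5-4, picked out after its values were seen, had 35.3, 35.2 and 33.3 CPM in saline and 15.6, 16.1 and 19.1 CPM in PD libraries (log2 fold change -1.03, SE 0.10, adjusted p = 1.06e-05).

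Of the remaining families with several members, families 2 and 14 were called. Family 2 was higher in PD mice (9.97 ± 0.328 to 13.5 ± 0.558 CPM, log2 fold change 0.45, edgeR adjusted p = 0.00661), again with a turned sign, -0.23, under scaling to endothelial markers. Of its 5 members Ighv2-3 alone was called, with a log2 fold change of 1.44. Family 14 was lower (15.6 ± 2.14 to 11.6 ± 1.09 CPM, log2 fold change -0.42, adjusted p = 0.0220), and this call was lost without saline 1 (adjusted p = 0.0928), PD 1 (0.0576) or PD 2 (0.0895). Its lower members were Ighv14-1 and Ighv14-4, while Ighv14-2 and Ighv14-3, its most abundant gene, had log2 fold changes of -0.10 and 0.10 and were not called. Families 3, 8, 9 and 10 were not called, with log2 fold changes of 0.16, 0.19, -0.05 and 0.18 and adjusted p of 0.347, 0.116, 0.658 and 0.154. In families 3 and 9 members were called in both directions.

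Families 4, 11 and 13 rested on single genes. Ighv4-1 had 34.4, 30.9 and 33.9 CPM in saline and 74.0, 81.8 and 94.9 CPM in PD libraries (log2 fold change 1.33, SE 0.10, edgeR adjusted p = 1.00e-06). It was the member with the most counts in each PD library. Ighv11-2, which encodes the heavy chain of many B-1 antibodies to phosphatidylcholine, had 50.3, 55.2 and 46.4 CPM in saline and 10.5, 8.85 and 13.8 CPM in PD libraries (log2 fold change -2.20, SE 0.15, adjusted p = 4.04e-07). Its near copy Ighv11-1, which differs from it at 4 of 307 exon bases, was outside the members with 8, 2 and 5 counts in saline and 4, 1 and 1 counts in PD libraries. Ighv12-3, the other V gene known from such antibodies, was outside the members with 8, 7 and 6 counts in saline and 5, 6 and 7 counts in PD libraries. These counts overlapped and were too few to show a small difference. Ighv13-2 had 1.60, 1.75 and 1.49 CPM in saline and 13.9, 12.6 and 11.3 CPM in PD libraries (log2 fold change 2.97, SE 0.17, adjusted p = 1.17e-07). For none of these 3 members did the groups overlap.

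**Figure D3:**
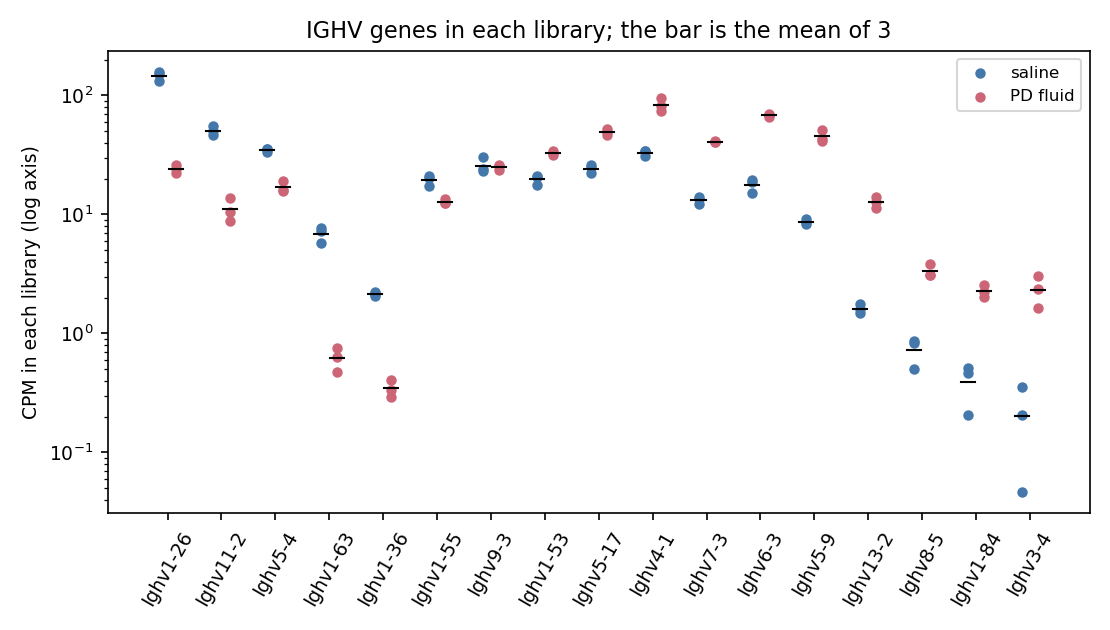
CPM of 17 IGHV genes in each library (points, log axis), with bars at the mean of 3. The PD points of Ighv1-26, Ighv11-2, Ighv1-63 and Ighv1-36 lie below all saline points, those of Ighv9-3 overlap, and those of Ighv4-1, Ighv6-3, Ighv5-9 and Ighv13-2 lie above.

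Ighv1-26 led each saline library and showed the lowest fold change of the 47 members with a mean of at least 100 counts. It had 4050, 3256 and 3194 counts in saline and 657, 533 and 570 counts in PD libraries, or 147 ± 13.3 and 24.1 ± 1.74 CPM (log2 fold change -2.61, SE 0.09, edgeR adjusted p = 2.44e-09). By counts it went from rank 1 to rank 10 of the members. Ighv1-18, which differs from it at 8 bases, had 8.75, 9.68 and 8.90 CPM in saline and 5.48, 6.79 and 5.89 CPM in PD libraries (log2 fold change -0.59, adjusted p = 0.00532). Some reads from one may have been counted for the other, and this was not tested.

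Of the other lower members, Ighv1-63 and Ighv1-36 showed the largest folds, at low levels. Ighv1-63 had 7.65, 7.29 and 5.71 CPM in saline and 0.478, 0.755 and 0.634 CPM in PD libraries (log2 fold change -3.47, SE 0.25, edgeR adjusted p = 8.26e-07). Ighv1-36 had 2.23, 2.08 and 2.15 CPM in saline and 0.294, 0.336 and 0.408 CPM in PD libraries (log2 fold change -2.63, SE 0.34, adjusted p = 7.33e-05). After Ighv11-2, given above at -2.20, Ighv14-1, Ighv5-15, Ighv1-69 and Ighv1-81 followed with log2 fold changes of -1.82, -1.70, -1.26 and -1.25. Ighv1-55, which is known from peritoneal B-1 cells, fell from 19.5 to 12.7 CPM (log2 fold change -0.62, SE 0.12, adjusted p = 9.16e-04). Ighv1-72, known from the response of C57BL/6 mice to nitrophenyl haptens, fell from 25.4 to 16.3 CPM (log2 fold change -0.64, adjusted p = 2.48e-04).

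Among the higher members, Ighv6-3 and Ighv7-3 stood beside Ighv4-1 and Ighv5-9 at high levels. Ighv6-3 had 19.4, 15.2 and 18.6 CPM in saline and 66.4, 68.2 and 70.2 CPM in PD libraries (log2 fold change 1.94, SE 0.10, edgeR adjusted p = 4.72e-08). Ighv7-3 had 13.5, 12.3 and 14.1 CPM in saline and 41.4, 40.3 and 40.6 CPM in PD libraries (log2 fold change 1.61, SE 0.09, adjusted p = 1.27e-07). Ighv5-17 and Ighv1-53 rose less, with log2 fold changes of 1.02 and 0.73, and Ighv6-6, Ighv7-1 and Ighv7-4 had 1.41, 1.48 and 1.46. The next 3 genes, with little signal in saline mice, rose to low levels: Ighv3-4 from 9, 1 and 5 counts to 82, 39 and 52, Ighv1-84 with a log2 fold change of 2.51, and Ighv8-5 with 2.196. For Ighv3-4 the log2 fold change of 3.46 (SE 0.50, adjusted p = 1.71e-04) rests on the few saline counts. Ighv3-4 and Ighv1-84 reached the mean of 10 counts only through their PD libraries, so a rise was built into their selection. Smaller rises were called for Ighv1-5, Ighv1-12, Ighv9-4, Ighv5-9-1 and Ighv5-16, with log2 fold changes of 0.78, 0.82, 0.67, 0.80 and 0.55, and for Ighv1-9 with 0.36; under scaling to endothelial markers Ighv5-16 and Ighv1-9 turned to -0.12 and -0.31, and Ighv1-5, Ighv1-7, Ighv1-12, Ighv1-53, Ighv5-9-1 and Ighv9-4 lost their calls, with log2 fold changes of 0.0028 to 0.15 (adjusted p = 0.315 to 0.990). The call of Ighv1-9 was lost without saline 3 (adjusted p = 0.05004), and that of Ighv1-7 (log2 fold change 0.69, adjusted p = 0.0414) without any 1 of the 6 libraries (0.0506 to 0.161). With all 6 libraries the Ighv1-7 call was also lost in DESeq2 (adjusted p = 0.118), and in edgeR with a replicate block (0.0797) or no filter on low counts (0.0518).

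**Figure D4:**
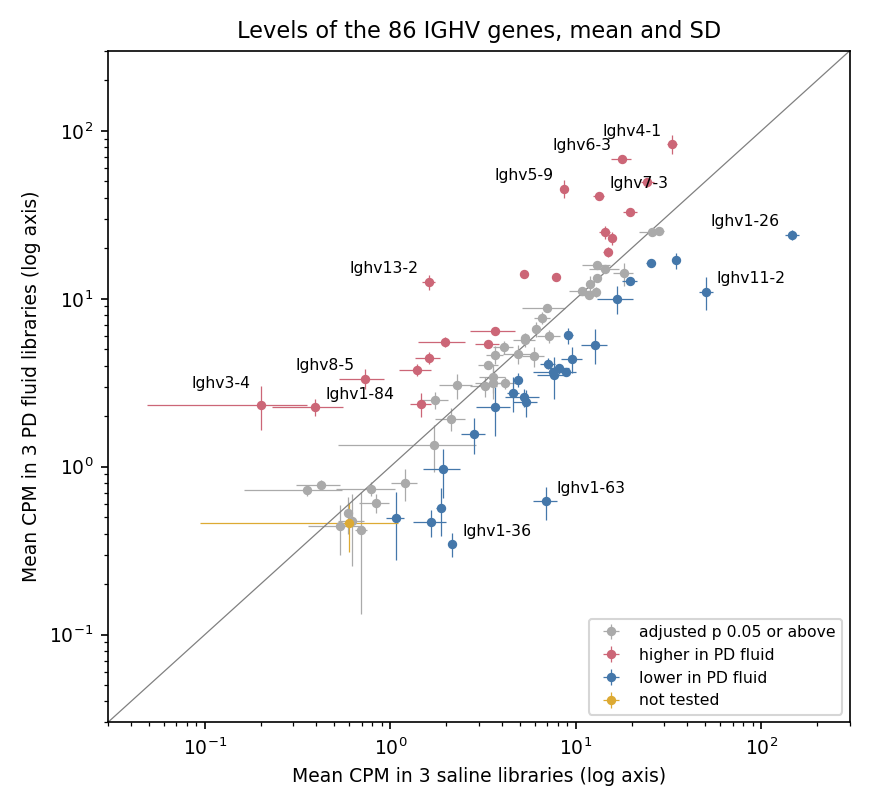
Mean CPM of each of the 86 members in saline (x, log axis) and PD libraries (y, log axis), with SD bars and the line of equal level; colours mark calls at adjusted p below 0.05. Ighv1-26 and Ighv11-2 lie far below the line among abundant genes, and Ighv4-1, Ighv6-3 and Ighv5-9 far above it.

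Levels between genes were compared per length, with the FPKM values that the authors deposited. In saline mice the highest FPKM level was that of Ighv1-26 (417 ± 36.2, n = 3), followed by Ighv11-2 (109 ± 8.63), Ighv5-4 (81.1 ± 2.31), Ighv4-1 (79.6 ± 5.11) and Ighv9-3 (73.1 ± 11.2), the last 3 of which lie within their spread of each other. In PD mice the order was Ighv4-1 (202 ± 20.2), Ighv6-3 (192 ± 0.274), Ighv5-17 (122 ± 4.30), Ighv7-3 (113 ± 4.33) and Ighv5-9 (108 ± 10.4). Ighv4-1 and Ighv6-3 did not differ beyond their spread there, nor did Ighv7-3 and Ighv5-9. Of the 10 highest members by FPKM in each group, 7 were in both lists.

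Near copies were examined as pairs. At 97% identity or more there were 10 pairs of members, of which 7 had log2 fold changes of the same sign. Both genes were called in 2 pairs, Ighv1-18 with Ighv1-26 and Ighv14-4 with Ighv14-1, and all 4 genes were lower in PD mice. The other 3 pairs differed in sign, namely Ighv1-61 (-0.18) with Ighv1-52 (0.32), Ighv1-7 (0.69) with Ighv1-4 (-0.70), and Ighv2-2 (0.26) with Ighv2-5 (-0.14), and of these genes Ighv1-7 alone was called. Ighv1-50 (-0.35, adjusted p = 0.0511 in edgeR), Ighv1-59 (-0.39), Ighv1-62-2 (-0.26), Ighv1-62-3 (-0.43) and Ighv1-71 (-0.36) were not called. Ighv1-50 was called with DESeq2 (adjusted p = 0.0476), with DESeq2 size factors (0.0435), with a replicate block (0.0239), and without saline 3 (0.0234) or PD 1 (0.0347). Under scaling to endothelial markers in edgeR, Ighv1-50 (-1.03, adjusted p = 1.34e-05), Ighv1-59 (-1.06, 3.10e-04), Ighv1-62-2 (-0.93, 1.70e-04) and Ighv1-62-3 (-1.10, 0.0209) were called lower. So were Ighv1-61 (-0.84, 0.00553), Ighv1-4 (-1.37, 0.0246) and Ighv2-5 (-0.81, 0.0155). Among the members with a wide spread within a group was Ighv1-71, whose saline libraries held 3.05, 0.738 and 1.37 CPM.

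Position along the locus was set beside the changes as a description. Distance was measured to the J segments, toward which all members lie on 1 side. Of the 28 tested members nearest to them, 10 were higher and 10 lower in PD mice. In the middle 28 there were 9 higher and 7 lower, and in the farthest 29 there were 2 higher and 9 lower. Over all genes tested 31.1% were higher and 27.8% lower. The lower share of the farthest 29 is thus near the background, and their higher share is below it. The median log2 fold changes were -0.05, 0.05 and -0.35. Across the 85 genes, which share the same libraries, Spearman's rho with distance was -0.168 and Pearson's r was -0.167. Family 1 holds most of the distant genes, so position and family cannot be told apart here.

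The other antibody genes and the cell markers give the setting of these reads. Heavy constant genes summed to 11192 ± 409 CPM with saline and 10098 ± 324 CPM with PD fluid (n = 3), with 4 of 8 higher and 4 lower. Per 100 heavy constant reads there were 7.56 IGHV reads in saline and 8.43 in PD mice. Ighm, the constant part of IgM, went from 6191 to 7110 CPM (log2 fold change 0.20, edgeR adjusted p = 0.0162). Ighd, the constant part of IgD on naive B cells, went from 2511 to 891 CPM (log2 fold change -1.50, adjusted p = 8.21e-09). Of 4 light constant genes, Iglc1 was higher, Iglc2 and Iglc3 were lower and Igkc was not called.

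B cell markers fell, while plasma cell markers were called in both directions. The sum of 14 B cell markers was 9172 to 9500 CPM in saline and 4391 to 4435 CPM in PD libraries, with 13 lower, Cd79a and Ms4a1 among them, and Spib not called. The sum of 12 plasma cell markers was 1924 to 2044 CPM in saline and 2790 to 3144 CPM in PD libraries. Most of this difference was Jchain, the joining chain of IgM and IgA, which went from 1161 ± 59.9 to 2106 ± 175 CPM. The other plasma cell markers, in a sum made after this was seen, had 818 ± 0.847 CPM in saline and 875 ± 11.7 CPM in PD libraries, without overlap (exact permutation p = 0.1). Of these 12 markers, 6 were higher, among them Jchain, Xbp1, Prdm1 and Sdc1, 3 lower (Mzb1, Irf4 and Txndc5) and 3 not called. Per 100 reads on B cell markers there were 9.02 ± 0.560 IGHV reads in saline and 19.3 ± 0.833 in PD mice, and per 100 reads on plasma cell markers 42.7 ± 2.84 and 28.6 ± 1.34. Without Jchain the latter were 103 ± 7.97 and 97.4 ± 5.01, which overlapped (exact permutation p = 0.3). Of 6 B-1 cell markers 3 were higher (Cd9, Ptpn22 and Spn), Bhlhe41 lower, and Cd5 and Zbtb32 not called. Of the germinal centre genes, Fas and S1pr2 were higher, Bcl6 and Mef2b lower and Gcsam not called. The octamer-binding regulators of immunoglobulin promoters, Pou2af1, Pou2f1 and Pou2f2, were all lower, with log2 fold changes of -0.81, -0.53 and -0.70. Of 6 genes of V(D)J recombination in precursors only Dntt was tested, and it was not called (4.32 ± 0.901 and 3.74 ± 0.811 CPM), while Rag1 and Rag2 were at 0.449 and 0.227 CPM in saline mice.

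**Figure D5:**
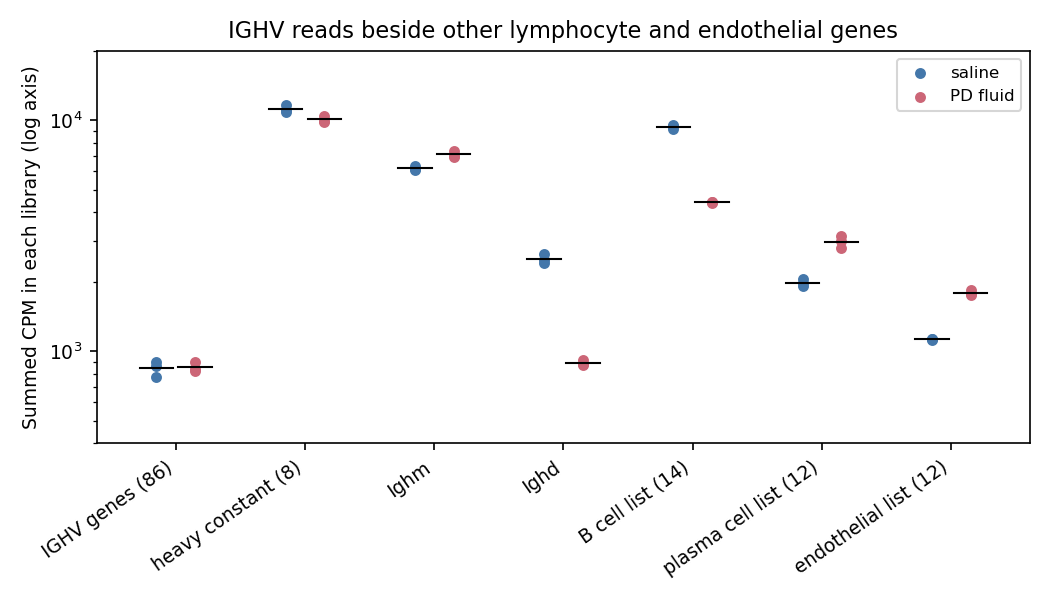
Summed CPM in each library (points, log axis) of the 86 IGHV genes, of heavy constant genes and of marker lists, with bars at the mean of 3. IGHV sums overlap between groups, B cell list sums are 9172 to 9500 CPM in saline and 4391 to 4435 CPM in PD libraries, and plasma cell list sums are higher in PD libraries, mostly through Jchain.

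Other cell types moved with the groups as well. The sum of 12 endothelial markers was 1123 to 1129 CPM in saline and 1753 to 1843 CPM in PD libraries, with 11 higher and Pecam1, which encodes CD31, not called, so the labelled cell type was present beside large lymphocyte and macrophage signals. Of 8 T cell markers 5 were lower and 3 not called (2781 and 2151 CPM summed). All 8 macrophage markers were higher, from 2377 to 2524 CPM summed in saline to 9944 to 10743 CPM in PD libraries. All 8 pancreatic acinar genes were higher, from 1.13 to 3.37 CPM summed, with Ctrb1 and Reg1 at 0 in a saline library, to 6703 to 7658 CPM. The part of these lists in the IGHV results was not tested.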

How the data were processed

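RNA from sorted peritoneal cells was oligo(dT) selected and sequenced. The authors deposited 1 table of whole-number counts per gene, FPKM per library, group mean FPKM, and their own log2 ratios and p-values, of which the comparison columns were not used. Submitters' processing notes name fastp 0.18.0, Bowtie2 2.2.8, HISAT2, StringTie 1.3.1 and RSEM; what each was used for, the build and the gene annotation are not given in the sources used here. Identifiers matched GENCODE M21 (GRCm38) for 22128 of 22183 rows and all 113 Ighv rows.

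Counts were fitted with edgeR 4.0.16 (filterByExpr, TMM, quasi-likelihood test, Benjamini-Hochberg adjustment) in R 4.3.3, all 6 libraries in 1 fit; the study names limma. On simulated data with 197 changed genes among 13975 tested, the fit recovered 192 of them, with 9 unchanged genes called. In the real data 58.9% of genes were called, so the simulation does not test the scaling under so many changes. Exact permutation tests were two-sided. Members and lists were chosen with earlier results of these data known. Members were named if they had the highest count of a family or a library or the highest FPKM, were among the 8 most changed each way, were called against the majority, lay at the count limit, varied most within a group, were near-identical copies or were known from peritoneal B-1 cells. Alternatives were DESeq2 1.42.0, limma-voom (limma 3.58.1), other scalings and filters, a replicate block and leaving out each library. Counting error covers sampling of reads only and is widest for members with few counts. Single values of some listed marker genes are not reported here.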

Additional observations from a re-analysis of the deposited data

How the results depend on the processing

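Called members numbered 47 and ranged from 42 to 45 with each library left out in turn (19 to 21 higher, 22 to 25 lower), and were 45 with no filter, 45 with DESeq2, 47 with limma-voom and 48 with DESeq2 size factors. A fold of at least 2 as well left 29 members, 13 higher and 16 lower. Families called numbered 9, and 8 to 9 without 1 library. Scaling to endothelial markers moved most: 13 members were higher and 52 lower, 11 families were called, family 9 going from -0.05 to -0.73 (edgeR adjusted p = 1.96e-05), the log2 ratio of the summed IGHV level went from 0.01 to -0.66 (-0.05 to 0.06 without 1 library), and signs turned for families 2 (-0.23), 3 (-0.52), 5 (-0.17), 8 (-0.49) and 10 (-0.50) and for Ighv1-9 (-0.31), Ighv10-3 (-0.39), Ighv14-3 (-0.57), Ighv3-6 (-0.62), Ighv5-16 (-0.12) and Ighv8-12 (-0.63); this scaling divides by markers that are themselves higher in PD mice. Families 4, 6, 7 and 13 stayed higher and families 1, 11 and 14 lower under every alternative run on them, the family 14 call being lost without 1 of 3 libraries. With the FPKM values of the authors, the share of family 6 rose by 7.38 percentage points and that of family 11 fell by 3.82.

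The labels do not say whether replicate numbers pair the samples. Deviations of same-numbered libraries correlated at 0.188, 0.067 and -0.274, which without a comparison to other pairs cannot settle it. With a replicate block 45 members and 9 families were called. Counts of a few reads per library limit Ighv3-4, Ighv1-84, Ighv1-20 and Ighv3-8, and near copies limit single members of family 1.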
